A study of Mus musculus with 8 samples.

Results

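The expression of 6 aquaporin genes, Aqp1, Aqp3, Aqp4, Aqp5, Aqp9 and Aqp11, was compared between the cornea and the limbus of the mouse eye. The genes were taken by symbol from a table of 23420 named genes, and all 6 were listed in it. RNA came from wild type C57BL/6J mice that were 8 weeks old, and no treatment is named. The limbal rim, the ring of tissue where the cornea meets the sclera and conjunctiva, was cut away from the corneal button, the clear cornea inside that ring. Rims were pooled with rims and buttons with buttons before RNA extraction, so each tissue is a mixture of eyes. The labels list 4 samples for each tissue, but the table holds values that can be written as the reads of 1 cornea library and 1 limbus library. No spread between replicates was therefore available and no test across samples was made. Intervals given here are 95% intervals that cover counting error only, and reads are not independent molecules. They are exact, except where a Woolf interval is named, which is approximate.

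Aquaporins are membrane proteins that form pores, and water follows osmotic gradients through them. Aqp1, Aqp4 and Aqp5 belong to the water-selective channels, while Aqp3 and Aqp9 are aquaglyceroporins, which also let glycerol and other small solutes through. Aqp11 belongs to a more distant branch found on internal membranes. In the cornea, Aqp1 is known from keratocytes and the corneal endothelium, and Aqp3 and Aqp5 from the epithelium. Hydration of the stroma, and with it transparency, depends on the movement of water and ions across these cell layers.

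The bases in front of the start site are shown for Aqp3 and Aqp1, abundant members whose upstream bases lie outside annotated exons. Each run is the 100 bases before the RefSeq start on the gene's own strand (build GRCm38.p6), read 5′ to 3′. Capitals mark TATAAA, the core of a TATA box, and GGGCGG, a GC box, found on either strand. CCAAT was searched on both strands as well.
Aqp3, chr4:41098184-41098283, minus strand: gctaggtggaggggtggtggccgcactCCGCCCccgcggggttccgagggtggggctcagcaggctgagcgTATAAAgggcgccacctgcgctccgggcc
Aqp1, chr6:55336199-55336298, plus strand: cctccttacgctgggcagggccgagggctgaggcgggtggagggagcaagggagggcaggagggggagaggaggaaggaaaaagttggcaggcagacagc
The Aqp3 window held TATAAA, beginning 29 bases before the start, and a GC box on the opposite strand that began 73 bases before it. The Aqp1 window held none of the 3 motifs, and its RefSeq start lies 133 bases before the GENCODE start. Among 32851 mouse promoter windows of this length, 5.56% held TATAAA, 24.7% held GGGCGG and 18.9% held CCAAT. GC content was 74% for Aqp3 and 67% for Aqp1, against a median of 55% over all windows. These matches are descriptions of the sequence. The corresponding window of Aqp5 lies wholly within an annotated first exon and is not printed.

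Aqp5, Aqp3 and Aqp1 carried nearly all aquaporin reads in both tissues, and they differed in how they were divided between cornea and limbus. Aqp5 was 2.28-fold higher in the cornea, Aqp1 was 1.33-fold higher in the limbus, and Aqp3 was at nearly the same level in both. Aqp4, Aqp9 and Aqp11 had at most 14 reads in any library. The members together took 186169 of 26104317 reads on named genes in the cornea, or 0.713% (0.710% to 0.716%). In the limbus they took 109194 of 21182025 reads, or 0.516% (0.512% to 0.519%).

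**Figure D1:**
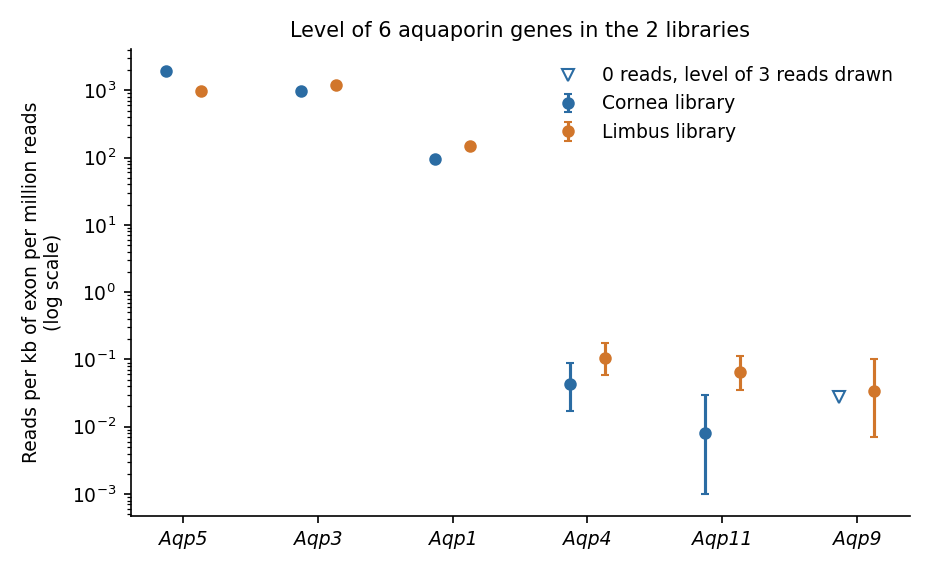
Level of each member in the cornea and limbus libraries, as reads per kilobase of merged exons after scaling by the total reads on named genes (RPKM), on a log axis. Bars are exact 95% Poisson intervals, 1 library per tissue, and the open triangle stands at the level of 3 reads where Aqp9 had 0 reads. Aqp5, Aqp3 and Aqp1 lie between 96.1 and 1958, and the other members lie at or under 0.106.

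Among the water-selective channels, Aqp5 (chr15:99590782-99594829, plus strand, GRCm38) had the most reads. It gave 132834 corneal and 54569 limbal reads. Only 13 named genes had more reads in the cornea library, where it ranked at 14, and it ranked at 24 in the limbus library. The division of its reads between the libraries was worked back from the table and rests in part on the deposited fold change, as for Aqp1 and Aqp3. After division by the size factors of the table, the log2 ratio of limbus over cornea was -1.19 (-1.20 to -1.17). Aqp5 was the only member more than 2-fold higher in the cornea, as were 8.99% of the 13862 genes with over 3 reads in each library. Its ratio lay at percentile 5.88 of those genes, counted from the side of the cornea. Scaling to total reads gave -0.98, just under 2-fold. The list of 5 corneal epithelial markers lay on the same side, and all 5 were higher in the cornea with intervals that left 0, as were 40.6% of all genes. Their summed reads were 2655595 in corneal and 1023964 in limbal tissue, a log2 ratio of -1.28. Of these, Krt12, the keratin of corneal epithelium, was 4.56-fold higher in the cornea and Aldh3a1, a corneal crystallin and aldehyde dehydrogenase, was 2.33-fold higher. By the 2-fold rule, 3 of the 5 were higher in the cornea, against 8.99% of all genes. Krt5 at 1.32-fold and Dsp at 1.77-fold stayed under it. The part of the epithelial share of each tissue in the Aqp5 ratio was not tested. In pooled tissue, fewer cells of a type and less RNA per cell cannot be told apart.

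Aqp1 (chr6:55336432-55348555, plus strand) had 6592 corneal and 8177 limbal reads. The log2 ratio was 0.41 (0.36 to 0.45), which is 1.33-fold (1.28 to 1.37) higher in the limbus. This stood at percentile 73.4 of all genes with over 3 reads in each library, and under 2-fold. Aqp1 ranked at 542 in the cornea library and at 329 in the limbus library. Cell types known to make Aqp1 were checked by their markers. All 5 corneal endothelial markers were higher in the limbus with intervals that left 0, with a median log2 ratio of 1.66 and summed reads of 14973 in the cornea and 21783 in the limbus. Of the 6 keratocyte markers, 4 were higher in the limbus with intervals that left 0, and 1 was lower there by the same rule, against 33.2% and 40.6% of all genes. The lower gene was Kera, the corneal proteoglycan keratocan, which was 7.97-fold higher in the cornea. The summed keratocyte reads were 79992 and 112778. The 7 markers of blood vessel endothelium summed to 251 corneal and 3299 limbal reads. Kdr held most of the corneal ones, with 170 corneal and 278 limbal reads. All 7 had reads in both libraries, and the defining gene Pecam1, an adhesion protein of endothelial cells, had 6 corneal and 831 limbal reads. The 5 red cell markers matched in the table summed to 112 and 174 reads. Among them, the beta globin gene Hbb-bs, listed under the synonym Beta-s, had 13 and 72 reads and was 5.92-fold higher in the limbus. Alas2, the heme synthesis enzyme of red cell precursors, had 99 and 102 reads. The alpha globin genes Hba-a1 and Hba-a2 and the anion exchanger Slc4a1 were listed at 0. The 4 markers of trabecular meshwork, the outflow tissue beside the limbus, summed to 6131 and 11511 reads. Most of the corneal ones came from Angptl7, an angiopoietin-like secreted protein, which had 5443 and 3605 and was higher in the cornea, with a log2 ratio of -0.50. Myoc, which encodes myocilin, had 9 and 1119. The 6 markers of ciliary epithelium summed to 140 and 771 reads. Most of the limbal ones came from Atp1b2, with 38 and 342, and Tyrp1, with 35 and 266. Col9a1 alone had more in the cornea, with 44 and 30, and its interval held 0. No gene of either list was at 0. The part of these cell types in the Aqp1 ratio was not tested.

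Aqp4, the main water channel of astrocytes and retinal glia that is also found in fast skeletal muscle, lies at chr18:15389496-15410982 on the minus strand. It had 7 corneal and 14 limbal reads. The log2 ratio was 1.10, with an interval from -0.31 to 2.65 that held 0, so these few reads could not show a difference. By size alone, and among members with over 3 reads in each library, Aqp4 was the only one at least 2-fold higher in the limbus, as were 15.5% of all genes with that many reads. With a pseudocount of 1 normalized read its log2 ratio was 0.99, under 2-fold. The 8 skeletal muscle markers summed to 500 corneal and 12154 limbal reads, and none was at 0. Tnni2 held most of the corneal ones, with 409 corneal and 1666 limbal reads. The glial list of 6 genes summed to 40058 and 26430 reads. Its genes were divided. Glul, glutamine synthetase, held most of those reads, and Dkk3, a secreted glycoprotein, had 8883 and 3503 and was 2.37-fold higher in the cornea. Rlbp1, the retinaldehyde-binding protein of retinal glia, had 22 and 169 and was 8.21-fold higher in the limbus. Gfap, the defining filament protein of astrocytes, had 5 and 14 reads. The part of muscle and glial RNA in the Aqp4 reads was not tested. An antisense gene overlaps Aqp4 in the annotation, and whether counting used strand is not stated.

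The aquaglyceroporin Aqp3 (chr4:41092722-41098183, minus strand), the glycerol channel of basal epithelial cells, had 46734 corneal and 46418 limbal reads. The log2 ratio was 0.09 (0.07 to 0.10), or 1.06-fold (1.05 to 1.08) higher in the limbus. At this depth its interval left 0, as did the intervals of 33.2% of all genes on the side of the limbus and 40.6% on the side of the cornea. The ratio stood at percentile 58.2, near the middle of all genes, whose median was -0.05. It ranked at 37 in the cornea library and 33 in the limbus library. The list of 7 limbal and conjunctival epithelial markers was far from even. All 6 genes of that list with enough reads were at least 2-fold higher in the limbus, against 15.5% of all genes, and the sums were 86829 corneal and 631506 limbal reads. Krt15, a keratin of basal limbal cells, was 10.02-fold higher in the limbus. Muc5ac, the mucin of goblet cells, had 1 read per library.

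Aqp9 (chr9:71110659-71168682, minus strand), an aquaglyceroporin known from liver and neutrophils, had 0 corneal and 3 limbal reads, and no fold is given. The level of 3 reads, taken as the limit for a count of 0, was 0.0277 RPKM in the cornea, and the exact interval of 0 reads reached 0.0341. In the list of neutrophil and macrophage genes, S100a9, an abundant calcium-binding protein of neutrophils, had 850 corneal and 745 limbal reads. Its log2 ratio was -0.09, and the interval held 0. Csf3r, a receptor of neutrophils, had 1 and 56. Of the 5 genes of the list with enough reads, 4 were at least 2-fold higher in the limbus, against 15.5% of all genes. They were the macrophage genes Csf1r, Lyz2 and Adgre1, the last listed under its older symbol Emr1, and the neutrophil gene S100a8. The whole list of 7 matched genes summed to 1201 and 2480 reads, and Cxcr2 was at 0 in the cornea. The part of these cells in the Aqp9 reads was not tested. A pseudogene and an antisense gene overlap Aqp9. Aqp11 (chr7:97724006-97738289, minus strand) had 2 corneal and 13 limbal reads. This gave a log2 ratio of 2.80, with a wide interval from 0.65 to 5.99. Like Aqp9, Aqp11 did not have over 3 reads in each library and is not counted among the members called.

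**Figure D2:**
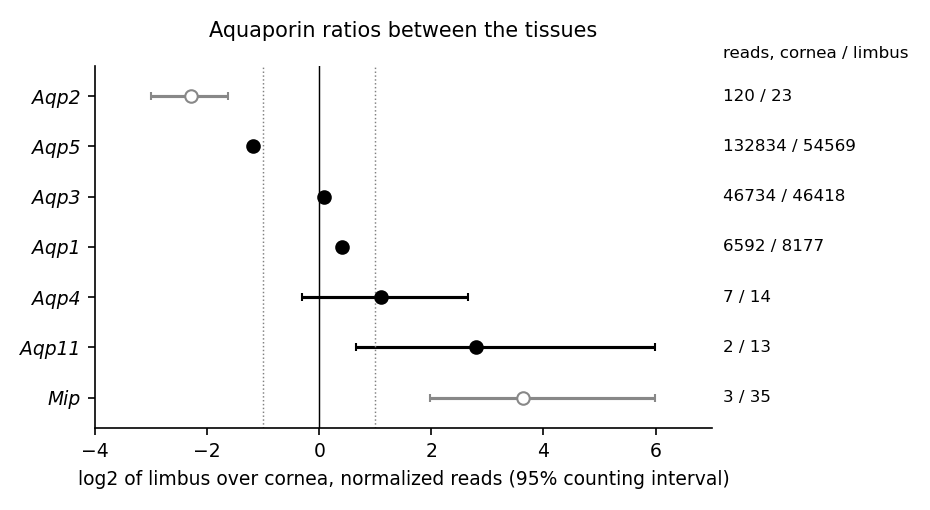
The log2 ratio of limbus over cornea for members (filled) and for Aqp2 and Mip (open), with exact 95% counting intervals and the reads behind each ratio. Dotted lines stand at 2-fold. Aqp5 lies at -1.19, Aqp3 at 0.09 and Aqp1 at 0.41, with intervals narrower than their symbols, while the intervals of Aqp4 and Aqp11 span several log2 units.

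Of the 4 members with over 3 reads in each library, Aqp5 was at least 2-fold higher in the cornea, Aqp4 was so in the limbus, and the other 2 were in between. The shares of all genes were 8.99% on the side of the cornea and 15.5% on the side of the limbus, and 4 members are too few to set against them. By the counting interval, 2 were higher in the limbus (Aqp1 and Aqp3), 1 was higher in the cornea (Aqp5) and 1 was undecided (Aqp4). The corresponding shares of all genes were 33.2% for the limbus and 40.6% for the cornea.

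**Figure D3:**
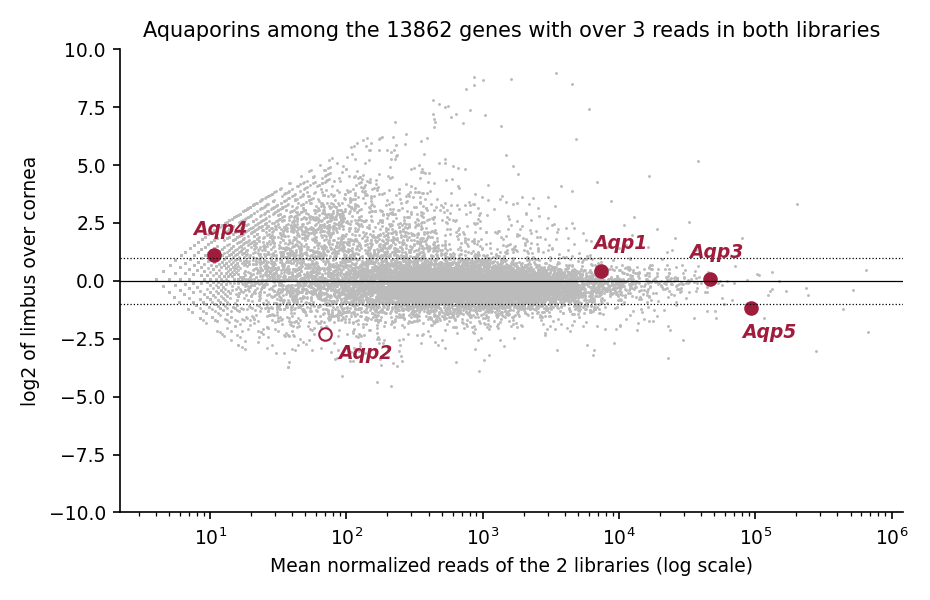
The log2 ratio of limbus over cornea against the mean normalized reads (log axis) for the 13862 genes with over 3 reads in each library (grey). Members are filled and Aqp2 is open, and dotted lines stand at 2-fold. Aqp1, Aqp3 and Aqp5 lie among the most abundant genes, with Aqp5 under the lower line, and Aqp4 lies among genes with few reads.

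The order of the abundant members was then compared per length within each library, which needs no scaling between tissues. In the cornea the level of Aqp5 was 1958 RPKM (1947 to 1968), that is, reads per kilobase of merged exons scaled by the library total. Aqp3 was at 979 (970.0 to 988) and Aqp1 at 96.1 (93.8 to 98.5). Aqp5 was therefore 2.0 times the level of Aqp3 (1.98 to 2.02) and 20.4 times the level of Aqp1 in the cornea. In the limbus the levels were 991 (983 to 999.6) for Aqp5, 1198 (1187 to 1209) for Aqp3 and 147 (144 to 150.2) for Aqp1. There Aqp5 was at 0.827 times the level of Aqp3 (0.817 to 0.838) and at 6.75 times that of Aqp1. The order of Aqp5 and Aqp3 in the limbus turned with the length used. With the longest transcript of each gene in place of all exons, Aqp5 was at 1.15 times the level of Aqp3 in the limbus and at 2.79 times in the cornea. The change of this ratio between the libraries does not depend on length or scaling, and it was 2.42 times as large in the cornea as in the limbus (Woolf interval 2.38 to 2.46). As shares of the summed level of the members, Aqp5 made up 64.6% of the corneal and 42.4% of the limbal total. Aqp3 made up 32.3% and 51.3% of them. Aqp1 made up 3.17% and 6.29%. These shares rest on the merged exon lengths. Of the reads themselves, with no length correction, Aqp5 took 71.4% and 49.97%, Aqp3 took 25.1% and 42.5%, and Aqp1 took 3.54% and 7.49%.

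The scarce members were at 0.0430 (0.0173 to 0.0886) for Aqp4 and 0.00814 (0.000985 to 0.0294) for Aqp11 in the cornea. In the limbus Aqp4 was at 0.106 (0.0580 to 0.178), Aqp11 at 0.0652 (0.0347 to 0.111) and Aqp9 at 0.0342 (0.00705 to 0.0999). Neighbours in this order have overlapping intervals in both libraries, so their order was not resolved. All lay far below Aqp1.

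The other aquaporin genes of the mouse table were Mip, Aqp2, Aqp6, Aqp7, Aqp8 and Aqp12. Aqp2, the vasopressin-regulated water channel of the kidney collecting duct, had 120 corneal and 23 limbal reads. Its log2 ratio was -2.29 (-3.00 to -1.64), 4.88-fold higher in the cornea and at percentile 0.801 of all genes. This direction rests on the deposited fold change. The other pair of reads that the mean allowed, 11 and 125, reverses the log2 ratio to 3.60. That pair missed the deposited values by 2.27, against 0.000154 for the pair used. Aqp2 lies upstream of Aqp5 on the same strand of chromosome 15, and its end is 6235 bases before the start of Aqp5. Aqp6, an intracellular channel of the kidney, begins 6571 bases after the end of Aqp5 and had 0 corneal reads and 1 limbal read. The next protein-coding gene within 50 kb, Racgap1, a regulator of cell division on the opposite strand, had 1995 and 2010 reads, with a log2 ratio of 0.11 (0.02 to 0.20). Aqp5 and Aqp2 were thus both more than 2-fold higher in the cornea, while Racgap1 was nearly even. Whether reads on Aqp2 come from transcripts that extend between the genes was not tested. The ratio of Aqp5 to Aqp2 reads was 1107 in the cornea and 2373 in the limbus.

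**Figure D4:**
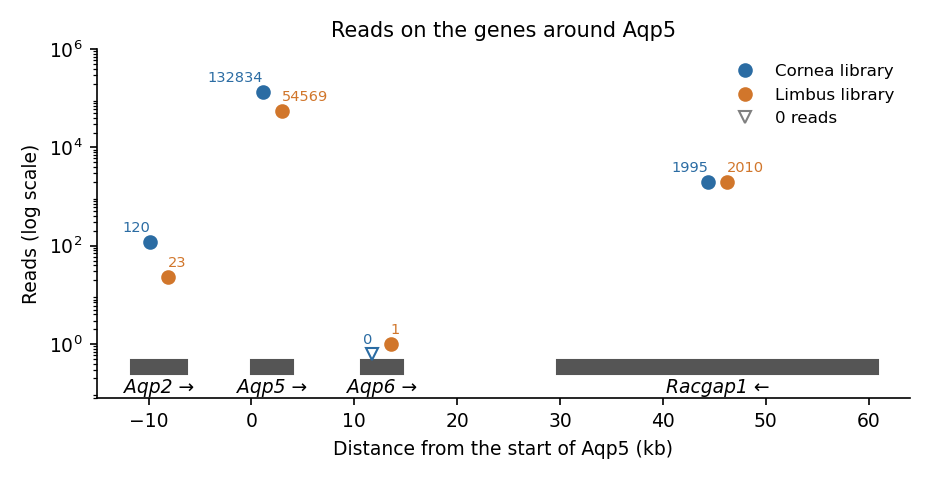
Reads on the protein-coding genes around Aqp5 in the cornea and limbus libraries, on a log axis, against distance in kb from the start of Aqp5. Grey boxes are gene extents and arrows give the strand, and the open triangle marks 0 reads. Aqp5 and Aqp2 have more reads in the cornea, Aqp6 has 0 and 1 reads, and Racgap1 has 1995 and 2010.

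Mip, the water channel of lens fibres, had 3 corneal and 35 limbal reads, a log2 ratio of 3.64 (1.97 to 5.99). A long noncoding RNA gene on the opposite strand overlaps it. Lens fibre markers lay on the same side. All 6 of them were higher in the limbus with intervals that left 0, as were 33.2% of all genes, and none was at 0. They summed to 1346 corneal and 11293 limbal reads. Cryaa, a crystallin of the lens, had 468 and 5423 reads. The part of lens RNA in the Mip reads was not tested. Aqp8 had 0 and 6 reads, which would be 2.14-fold higher in the limbus if the cornea is set to 3 reads. This is not a lower bound, because the exact interval of the 6 reads ran from 2.20 to 13.06. Aqp7, the glycerol channel of fat cells, had 0 and 1 reads, and Aqp12 was listed at 0.

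**Figure D5:**
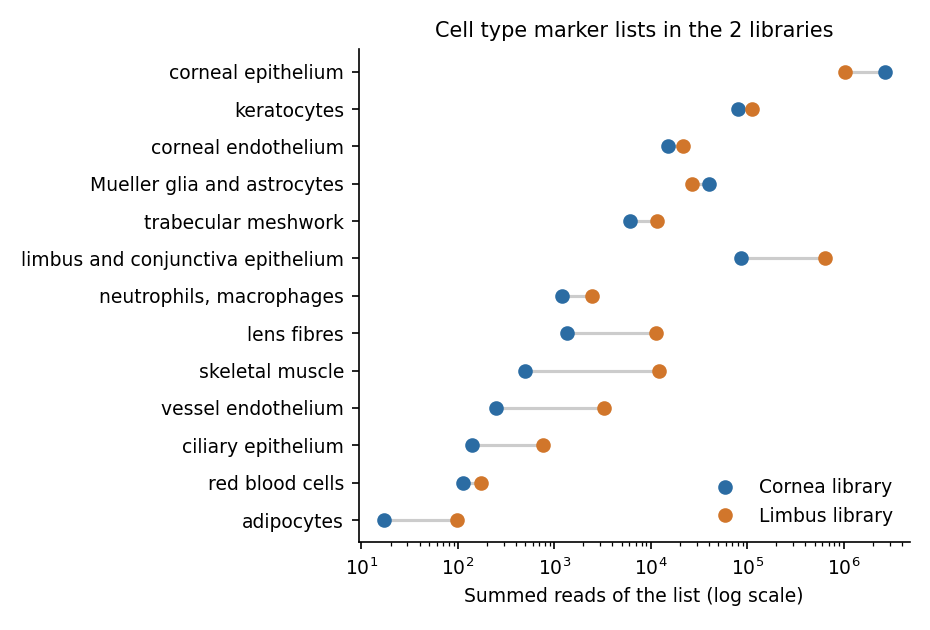
Summed reads of 13 lists of cell type markers in the cornea and limbus libraries, on a log axis. Corneal epithelium and the glial list have more reads in the cornea, and the other lists have more in the limbus, with skeletal muscle at 500 and 12154 reads. The glial sum rests mostly on Glul and Dkk3, while Rlbp1 and Gfap have more reads in the limbus. In the adipocyte list, with 17 and 97 reads, Fabp4 had 5 and 94, and Lep went the other way with 11 and 2. The lacrimal gland list, with 0 and 9 reads, is not drawn.

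Genes that handle glycerol were examined beside the aquaglyceroporins. Of the 9 genes, 8 had over 3 reads in each library, and 1 of these was at least 2-fold higher in the limbus, against 0 for the cornea. Over all genes these shares were 15.5% and 8.99%. Scaling to total reads gave 2 genes called in place of 1. By the counting interval, 5 were higher in the limbus and 3 were lower there, against 33.2% and 40.6% of all genes. Their median log2 ratio was 0.21, against -0.05 over all genes. Mgll, the lipase that frees glycerol from monoglycerides, had 2331 corneal and 4854 limbal reads, 2.23-fold higher in the limbus. Gpd1, the cytosolic glycerol-3-phosphate dehydrogenase, had 3 and 49 reads, a log2 ratio of 4.13 (2.49 to 6.45). The glycerol kinase gene, listed under its older symbol Gyk, had 3666 and 3608 reads and was nearly even, with a log2 ratio of 0.07. The 3 genes on the side of the cornea stayed under 2-fold. They were Lipe, hormone-sensitive lipase, at 1.93-fold, and the glycerol-3-phosphate dehydrogenase genes Gpd2 at 1.53-fold and Gpd1l at 1.30-fold.

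Ion transport helps set the osmotic gradients that water follows, and 14 genes of it were listed. Of the 13 with enough reads, 4 were at least 2-fold higher in the limbus and 1 was at least 2-fold lower there, against 15.5% and 8.99% of all genes. Their median log2 ratio was 0.64, against -0.05 over all genes. Car12, a membrane carbonic anhydrase, had 28 corneal and 902 limbal reads, 34.4-fold higher in the limbus. Car2, the cytosolic carbonic anhydrase, had 9 and 101 reads and was 11.99-fold higher there. Atp1b1, a sodium pump subunit, had 268 and 726 reads, and Cftr, a chloride channel, had 4 and 31. In the other direction, Slc4a7, a sodium bicarbonate cotransporter, had 791 corneal and 117 limbal reads, 6.33-fold higher in the cornea. Slc12a2, the sodium, potassium and chloride cotransporter, had 14579 and 7345 reads and stayed under 2-fold, with a log2 ratio of -0.89.

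Of 7 genes whose products anchor or couple to aquaporins, 6 had enough reads, and 1 of these was at least 2-fold higher in the limbus, against 0 for the cornea, beside the same 15.5% and 8.99% of all genes. Their median log2 ratio was 0.38, against -0.05 over all genes, and 2 genes were called under scaling to total reads. The gene called without that scaling was Dmd, dystrophin, with 63 and 179 reads. It is also expressed in skeletal muscle, whose markers had more reads in the limbus, and the part of muscle RNA in its reads was not tested. The potassium channel gene Kcnj10, often found beside Aqp4 in glia, had 3 and 25 reads. Trpv4, an osmotically gated cation channel, had 676 and 1010 reads, a log2 ratio of 0.68.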

How the data were processed

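Total RNA was made into stranded libraries and read from both ends. In CLC Genomics Workbench, adaptors were trimmed by the authors and the reads placed on GRCm38 (mm10), with the trimmed mean of M-values named for normalization. The authors deposited 1 table with a mean normalized signal per gene. They also deposited log2 fold changes with standard errors, p-values and adjusted p-values of their own comparison. The log2 columns, as deposited, served only to recover the reads. Where a mean allowed several pairs, as for Aqp1, Aqp2, Aqp3 and Aqp5, the split of reads between tissues therefore rests on them. None of their values is reported.

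Means of 17442 named genes fitted whole reads from 2 libraries, where 109 reads from cornea equalled 102 from limbus. Where a mean allowed several pairs, the pair was taken whose predicted fold change and standard error, under a shrinkage model, came closest to the table (largest sum of misfits 0.000726). The step was run on simulated data made with the same model and fitted settings. That run checks the calculation and cannot show that the model made the deposited values. Reads are therefore derived values. Another 5978 named genes were listed at 0, and 17484 rows without a gene name were left out of all totals. Depth was 26104317 corneal and 21182025 limbal reads.

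Genes were matched by symbol, because of 18554 rows whose accession column matched a reference gene only 2 matched their own symbol. Ratios used the size factors of the table, with the exact Clopper-Pearson interval for each limbal share. Levels used exact Poisson intervals, total reads and merged exons of GENCODE M21. Genes with over 3 reads in each library were compared at 2-fold, and where neither library had over 3, no fold is printed. All members and the other aquaporins were named whatever their values. Other listed genes could be named at 10 or more reads in a library and 2-fold, and not all of these are. Those outside this rule were chosen after their values were seen. They were Gyk, Lipe, Gpd2, Gpd1l, Slc12a2, Trpv4, Glul, Alas2, Angptl7, Kdr, S100a9, Cxcr2, Muc5ac, Krt5, Dsp and Col9a1. Also outside it were the listed genes at 0 and Racgap1, taken by position. The members and gene lists were chosen with earlier results of these data known. The values of 1 listed gene are left out and it enters no list count. Promoter sequences came from RefSeq (GRCm38.p6), with entries for 5 of 6 members. Alternatives were other scalings, a pseudocount, other pairs, folds, filters and gene lengths. Calculations used Python 3.11.15, numpy 2.4.6, scipy 1.17.1 and pandas 2.3.3.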

Additional observations from a re-analysis of the deposited data

How the results depend on the processing

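No paired analysis was possible because the table carries no value for a numbered sample. No replicate could be left out for the same reason. Scaling to total reads raised every log2 ratio by 0.21, to 0.61 for Aqp1, 0.29 for Aqp3 and -0.98 for Aqp5, and centring on the median of all genes gave 0.46, 0.14 and -1.13. All 3 kept their direction under every scaling run. Under total reads, Aqp5 left the 2-fold rule, so that 1 member was called in place of 2. Of all genes, 5.63% in place of 8.99% were then 2-fold higher in the cornea, and 18.1% in place of 15.5% in the limbus. The glycerol list then had 2 genes called in place of 1, the anchoring list 2 in place of 1 and the ion transport list 6 in place of 5. These counts under other scalings were added after seeing the data. With a pseudocount of 1, Aqp4 fell to 0.99 and also left the rule. At 4-fold, 0 of the 6 members were called. The level of Aqp5 over Aqp3 was 2.0 in the cornea and 0.827 in the limbus with merged exons, 2.79 and 1.15 with the longest transcript, and 2.84 and 1.18 with no length correction. The next best pair of reads for Aqp2, 11 and 125, reversed its log2 ratio to 3.60 but missed the deposited values by 2.27, against 0.000154 for the pair used. Of 52 comparisons with an alternative, 36 stayed within the main interval or within 1.5 times the main count. Depth limits Aqp4, Aqp9 and Aqp11, and differences between animals could not be measured.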
